A study of Rattus norvegicus with 6 samples.

Results

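The tumor necrosis factor (TNF) superfamily consists of ligands, most of them membrane proteins that can be shed from the cell surface, and of the receptors that bind them. Of the 17833 genes measured by bulk RNA-seq in the pulmonary veins (PVs) of young rats, 40 belonged to this family, 16 of them ligands and 24 receptors. The members were the genes whose symbol starts with Tnfsf or Tnfrsf and a digit, together with Tnf, Lta, Ltb, Ltbr, Cd40, Cd40lg, Cd27, Cd70, Fas, Faslg and Ngfr, with a mean level above 0 over the 6 libraries. Each of the 40 symbols that matched had a mean above 0, and the lowest was Faslg.

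Ligands of this family act as trimers that draw receptor chains together. Receptors with a death domain, such as Tnfrsf1a, Fas and Ngfr, recruit adaptors that can start caspase activation, and most other members recruit TRAF proteins that activate nuclear factor kappaB (NF-kappaB). Decoy receptors bind a ligand without passing on a signal. In vessels, TNF and lymphotoxin are known for inducing adhesion molecules and chemokines in endothelium, and the receptor of TWEAK (TNF-like weak inducer of apoptosis) is known for its induction in injured tissue.

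The study compared bilateral pulmonary vein banding (BPVB), in which the veins of newborn rats are tied over a needle that is then withdrawn, with sham surgery. All 6 animals were wild-type SD (Sprague-Dawley) rats, operated on at postnatal day 1 under hypothermia with opening of the chest, and PVs of the right upper lung lobe were taken at postnatal day 21. The 3 BPVB rats had the veins constricted and the 3 sham rats did not, and there was 1 library per rat. The veins of each rat were used whole, so that fewer cells of a type and less RNA per cell cannot be told apart in any value below. Values are the deposited FPKM, in which the fragments of a gene are divided by its length and by the depth of its library. A log2 fold change is the BPVB minus the sham mean of log2(FPKM + 0.5), which understates the change of genes at low levels, and a gene was called when its Benjamini-Hochberg adjusted p in limma was under 0.05. Nothing in the labels says whether litters were shared, and the p-values measure the spread between these rats.

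The libraries held 23439506 to 29725808 fragments. Genes of vein tissue were present in each library, with Acta2 at 1467 to 1704 FPKM, the atrial myosin light chain Myl7 of the myocardial sleeve at 5217 to 8217 and Pecam1 at 247 to 286. Several marker lists moved with the surgery. The summed level of 8 macrophage markers was 679 to 699 FPKM in the BPVB and 227 to 237 in the sham libraries, with 7 called higher. Most of this sum was Lyz2 alone, at 574 to 604 against 159 to 167 FPKM. The sum of 7 alveolar type 2 markers was 540 to 585 against 59.99 to 60.8, all 7 called higher. That of 6 alveolar type 1 markers was 151 to 160 against 84.3 to 88.0, with 5 called higher and 1 lower. The 6 neutrophil markers summed to 6.71 to 10.3 FPKM against 20.5 to 23.6, with 3 called lower. Called were 1 of 9 T cell markers (Cd4, higher), 1 of 4 tested NK cell markers (higher), 2 of 4 dendritic cell markers (higher), 2 of 5 mast cell markers (higher) and 1 of 3 plasma cell markers (Mzb1, higher), and the adjusted p of the 6 B cell markers lay between 0.17 and 0.94. Called lower were 4 of 6 endothelial markers and 4 of 6 smooth muscle markers, with Des called higher. Of 8 cardiomyocyte markers 5 were called lower and 3 higher, of 6 fibroblast markers 3 higher and 2 lower, of 4 adipocyte markers 2 higher and 1 lower. Of 4 tested autonomic neuron markers 2 were called lower, with Chrna3 and Chat at 0 in the BPVB libraries, as were 2 of 3 tested mesothelial markers, and the only airway marker tested, Scgb1a1, was called higher. The part of these shifts in the family's differences was not tested.

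Of the 40 members, 32 passed the filter on low values (a mean of at least 0.1 FPKM), 10 ligands and 22 receptors. Most of the family's transcripts came from few genes. At a mean of at least 10 FPKM were 6 members, the ligands Tnfsf12 (TWEAK) and Tnfsf10 (TRAIL) and the receptors Tnfrsf1a, Ltbr, Tnfrsf12a and Tnfrsf11b. A further 14 members lay between 1 and 10 FPKM, 12 between 0.1 and 1, and 8 below 0.1. Tnfsf12 made up 46.7% to 53.8% of the summed ligand FPKM of a library and Tnfsf10 31.5% to 36.2%. The order of the first 4 ligands, Tnfsf12, Tnfsf10, Tnfsf13 and Ltb, was the same in the 6 libraries, and so was that of the first 2 receptors, Tnfrsf1a and Ltbr.

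**Figure D1:**
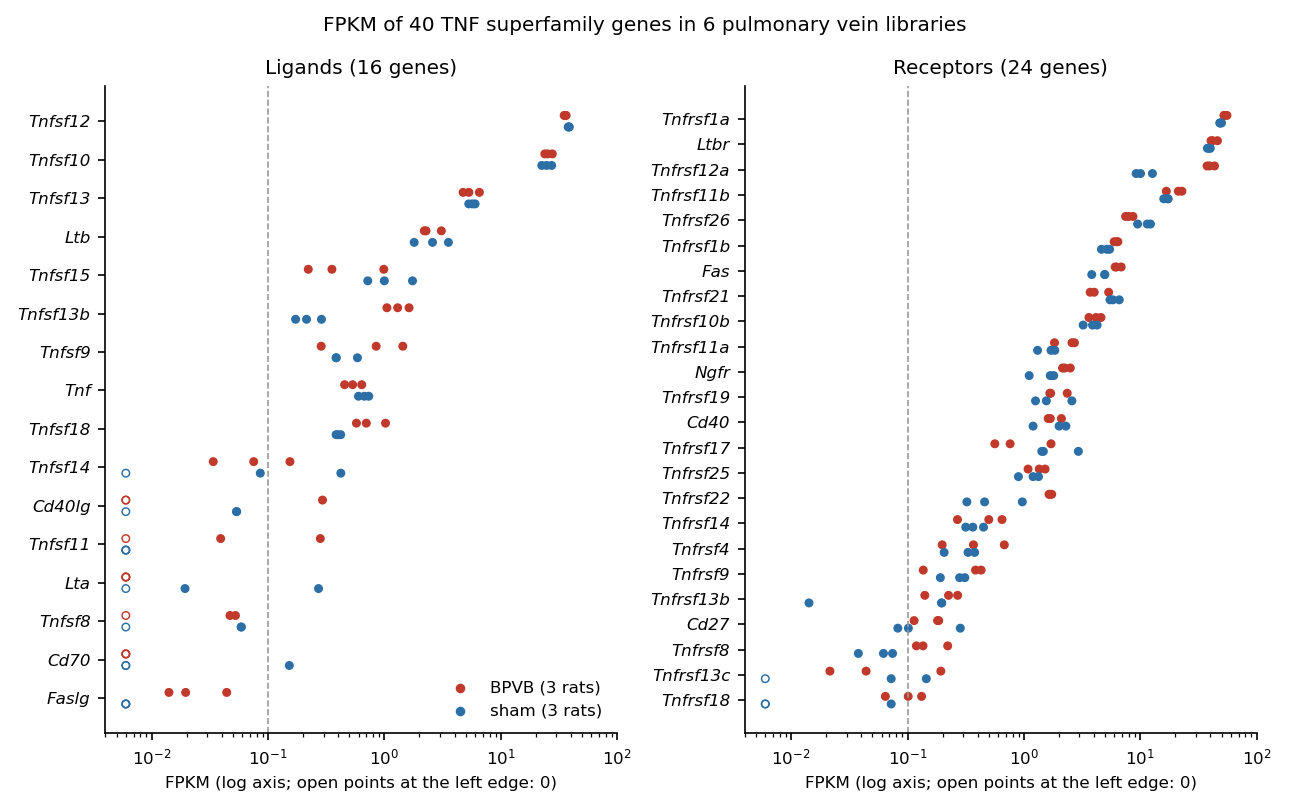
FPKM of the 16 ligands and 24 receptors on a log axis, with 1 point per library (red, 3 BPVB rats, and blue, 3 sham rats), open points at the left edge for libraries at 0 and a dashed line at the filter of 0.1 FPKM. Tnfrsf12a stands out among the abundant receptors by the gap between its red points (37.5 to 43.4) and its blue points (9.21 to 12.7), and Tnfsf13b among the ligands (1.05 to 1.63 against 0.172 to 0.288).

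Of the 32 tested members, 9 were called, 7 higher and 2 lower in the BPVB group. Over all 15150 genes tested, 31.5% were called, 17.2% higher and 14.3% lower, so that the share among the tested members, 28.1%, lay near that background. The call went to 1 of 10 ligands (Tnfsf13b) and to 8 of 22 receptors (Tnfrsf12a, Tnfrsf22, Ngfr, Fas, Tnfrsf1b and Tnfrsf1a higher, Tnfrsf26 and Tnfrsf21 lower). The groups did not overlap in 13 of the 32 tested members, beside 45.6% of all genes tested. The median log2 fold change was -0.04 over the 10 ligands and 0.14 over the 22 receptors, beside 0.03 over all genes tested. Tnfrsf12a, Tnfsf13b and Tnfrsf22 also had an absolute log2 fold change above 1, which held for 3.27% of all genes tested and, upward, for 2.24%. Leaving out single libraries moved the counts, and in these fits the share of all genes called was 25.9% to 27.2%. The receptors called were 5 without BPVB 2, 5 without sham 2 and 4 without sham 3, the ligands called 3 without BPVB 1 and 2 without BPVB 2, the members called higher 4 without sham 3, and those called lower 1 without BPVB 2 or any 1 sham library. Tnfrsf12a, Tnfsf13b, Tnfrsf22, Fas and Tnfrsf26 were called without each library in turn.

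**Figure D2:**
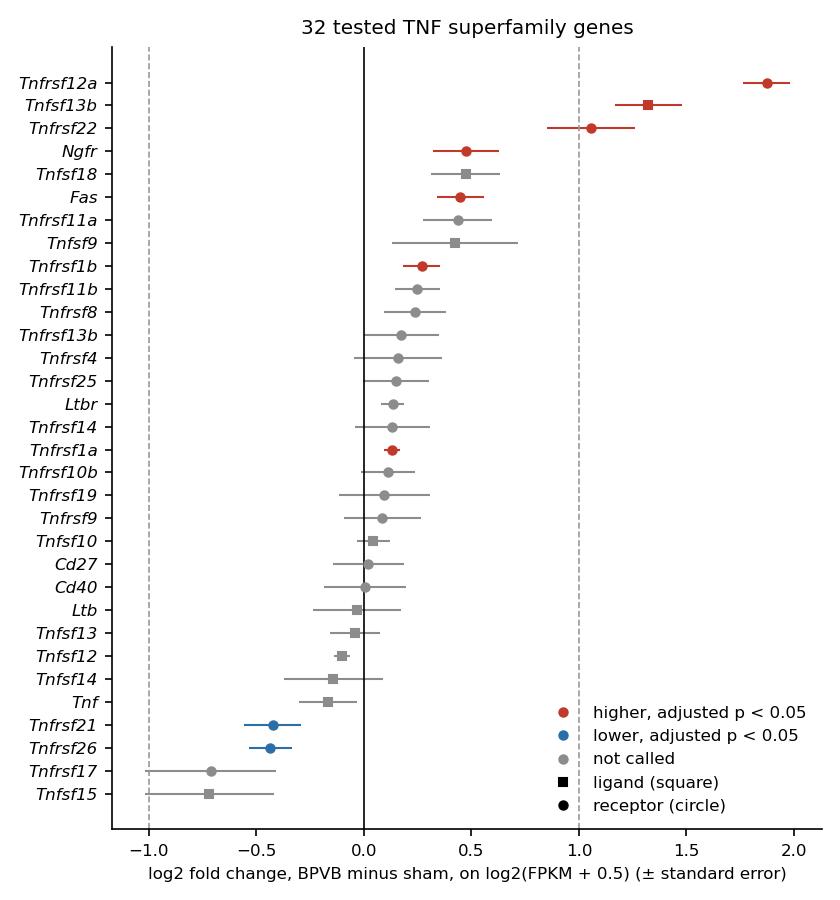
Log2 fold change (BPVB minus sham, on log2(FPKM + 0.5)) of the 32 tested members with its SE, from the largest rise to the largest fall; squares are ligands, circles receptors, red and blue mark an adjusted p under 0.05, and dashed lines stand at -1 and 1. Of the 9 coloured points, Tnfrsf12a (1.87), Tnfsf13b (1.32) and Tnfrsf22 (1.06) lie beyond the right dashed line.

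Tnfrsf12a encodes Fn14, the receptor of TWEAK. It was expressed at 37.5, 39.3 and 43.4 FPKM in the BPVB libraries (968, 992 and 1249 fragments) and at 10.0, 9.21 and 12.7 FPKM in the sham libraries (231, 209 and 293 fragments). The lowest BPVB value lay far above the highest sham value. The mean was 40.1 ± 3.0 (SD, n = 3) against 10.7 ± 1.8 (SD, n = 3), 3.76-fold higher, with a log2 fold change of 1.87 (standard error, SE, 0.11, adjusted p = 3.2e-06, limma). Its share of the summed FPKM of the 24 receptors was 19.1% to 20.8% in the BPVB and 6.06% to 7.90% in the sham libraries, and among the receptors it held the rank of 3 in each BPVB library and of 5, 5 and 4 in the sham libraries. The receptor sum itself was 195 to 209 FPKM against 152 to 161.

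The ligand did not follow. Tnfsf12 was expressed at 36.4, 35.0 and 35.7 FPKM in the BPVB and at 38.3, 37.9 and 38.8 in the sham libraries, slightly lower in each BPVB library than in any sham library, with a log2 fold change of -0.10 (SE 0.04) that did not pass (adjusted p = 0.07, limma). With libraries scaled by the median of ratios it was called at -0.13, and without the filter on low values at -0.10. Per unit of length, Fn14 transcripts stood at 1.03, 1.12 and 1.21 times those of TWEAK in the BPVB libraries and at 0.262, 0.243 and 0.328 times in the sham libraries. This ratio was chosen after the values were seen and is given as a description. Tnfsf13, the ligand APRIL, whose gene lies next to Tnfsf12 in the rat genome, was expressed at 4.74 to 6.54 FPKM in the BPVB and 5.30 to 6.01 in the sham libraries, with a log2 fold change of -0.04 (adjusted p = 0.82, limma).

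The 250 bases before the start of Tnfrsf12a are printed below because its log2 fold change on log2(FPKM + 0.5) was the largest in the family. With a pseudocount of 0.1 and with voom on the fragments that of Tnfsf13b was larger (2.13 against 1.91 and 2.53 against 1.92). The printed bases lie at chr10:13213649-13213898 on the minus strand of RefSeq's GRCr8, and capitals mark the GC box (GGGCGG on either strand), which was found 4 times within 90 bases of the start, with the 2 nearest copies adjoining. A GC box was present in 15 of the 30 members for which a promoter was at hand and in 32.4% of 27455 rat promoters of the same length.
Tnfrsf12a: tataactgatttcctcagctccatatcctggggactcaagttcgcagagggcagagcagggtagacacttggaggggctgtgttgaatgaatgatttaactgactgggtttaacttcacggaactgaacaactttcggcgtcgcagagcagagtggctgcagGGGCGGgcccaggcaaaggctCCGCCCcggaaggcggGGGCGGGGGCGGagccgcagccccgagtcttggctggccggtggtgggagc

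**Figure D3:**
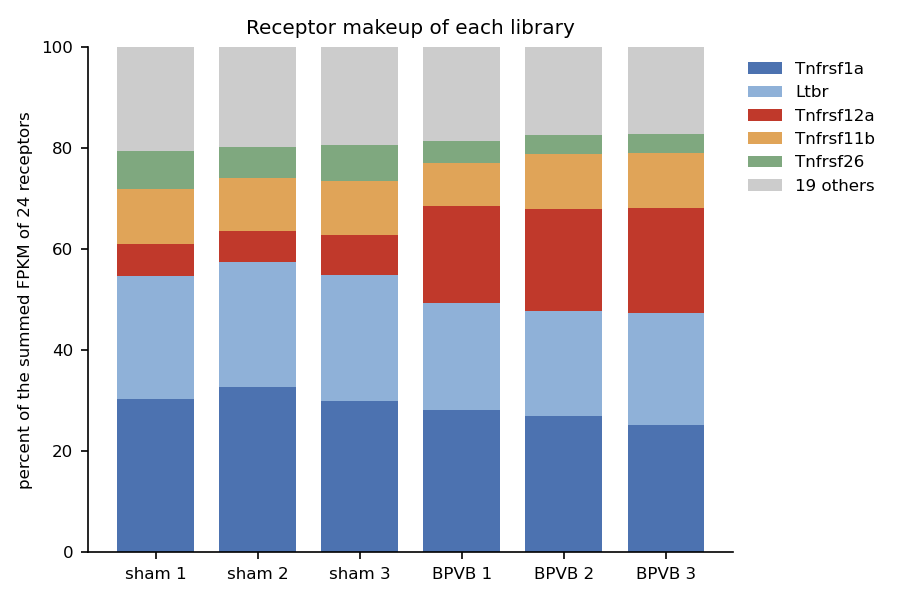
Share of each library's summed receptor FPKM (24 receptors) taken by the 5 most abundant receptors and by the other 19 together, in percent, for 3 sham and 3 BPVB libraries. The red segment, Tnfrsf12a, spans 6.06% to 7.90% of the sham bars and 19.1% to 20.8% of the BPVB bars, with Tnfrsf1a (30.1% to 32.8% in sham, 25.3% to 28.2% in BPVB) at the bottom of each bar.

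Tnfsf13b encodes BAFF, a factor for the survival and maturation of B cells that myeloid cells are known to make. Its levels were 1.299, 1.05 and 1.63 FPKM in the BPVB group against 0.288, 0.214 and 0.172 in the sham group, from 76, 60 and 106 fragments against 15, 11 and 9. No BPVB value came near the sham values. Its log2 fold change was 1.32 (SE 0.16, adjusted p = 2.7e-04, limma) and the ratio of the mean FPKM 5.90, with means of 1.33 ± 0.29 and 0.225 ± 0.058 (SD, n = 3 each). Among the ligands it ranked 5 in each BPVB library and 9 or 10 in the sham libraries. It could not be tested at a mean of at least 1 FPKM, which it did not reach.

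The receptors of BAFF showed no such difference at this depth. Tnfrsf17 (BCMA), found on plasma cells, was expressed at 0.761, 0.563 and 1.71 FPKM in the BPVB and 1.42, 2.94 and 1.47 in the sham libraries, so that BPVB 3 lay within the sham range. Its log2 fold change of -0.71 (SE 0.31) did not pass (adjusted p = 0.11, limma), but did without BPVB 3, at -1.02 (adjusted p = 0.025, limma). Tnfrsf13b (TACI) was at 0.225, 0.141 and 0.270 against 0.197, 0.0142 and 0.196 FPKM (log2 fold change 0.17, adjusted p = 0.49, limma). Tnfrsf13c (the BAFF receptor) was below the filter, with 1, 2 and 10 fragments against 6, 0 and 3. B cell markers summed to 4.44 to 4.68 FPKM in the BPVB and 3.798 to 5.38 in the sham libraries, and the plasma cell markers, of which Tnfrsf17 is one, to 2.35 to 4.11 and 2.55 to 3.47. The other plasma cell markers lay higher in each BPVB library than in any sham library, Mzb1 at 1.27 to 1.96 against 0.195 to 0.910 FPKM (log2 fold change 0.92, adjusted p = 0.030, limma) and Irf4, which was not called, at 0.428 to 0.518 against 0.262 to 0.337 (adjusted p = 0.15, limma). Beside Tnfsf13b, 7 of 8 macrophage markers rose, by 1.85 for Lyz2, 1.09 for Cd68 and 0.42 to 0.70 for the rest of the 7 on the log2 scale. Their part in the Tnfsf13b difference was not tested.

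The promoter of Tnfsf13b is printed because BAFF was the only ligand called. It lies at chr16:86194500-86194749 on the minus strand of GRCr8, and capitals mark the core of an interferon response element (GAAA, any 2 bases and GAAA, on either strand), found 20 to 11 bases before the start. This core was present in 3 of the 30 member promoters, those of Tnfsf13b, Tnfrsf1b and Tnfrsf17, and in 3.28% of all promoters. Of these 3 genes the first 2 were called higher and Tnfrsf17 was not called.
Tnfsf13b: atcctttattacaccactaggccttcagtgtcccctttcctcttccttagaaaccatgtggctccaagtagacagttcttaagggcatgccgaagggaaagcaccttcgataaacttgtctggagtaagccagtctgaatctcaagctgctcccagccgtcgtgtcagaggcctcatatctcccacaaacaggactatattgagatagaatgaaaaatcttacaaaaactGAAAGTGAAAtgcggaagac

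**Figure D4:**
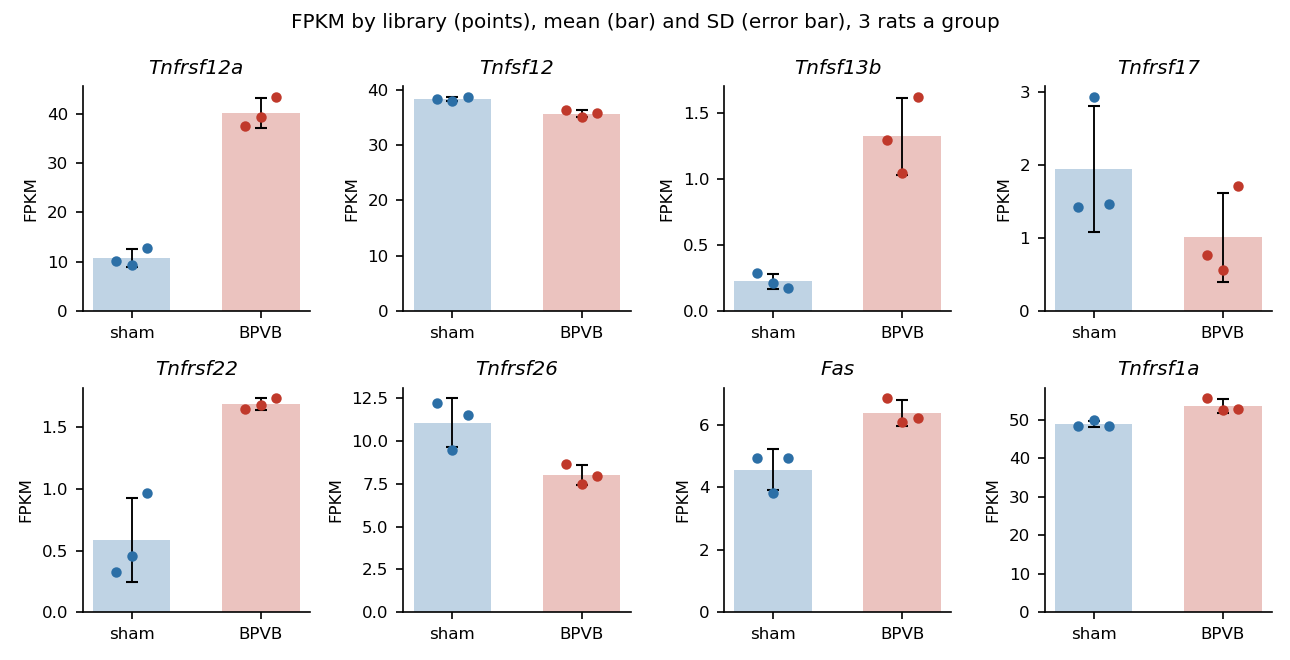
FPKM of 8 members by library (points), with the mean (bar) and SD (error bar) of 3 sham (blue) and 3 BPVB (red) rats, each axis starting at 0. The red points lie above the blue points for Tnfrsf12a, Tnfsf13b, Tnfrsf22, Fas and Tnfrsf1a and below them for Tnfsf12 and Tnfrsf26, while those of Tnfrsf17 overlap.

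Tnfsf10, the apoptosis-inducing ligand TRAIL, was the second ligand by level and overlapped between the groups, at 23.9, 25.3 and 27.7 FPKM in the BPVB and 22.5, 27.3 and 24.8 in the sham libraries (log2 fold change 0.04, SE 0.08, adjusted p = 0.71, limma). Its signalling receptor Tnfrsf10b was at 4.59, 3.62 and 4.17 FPKM against 3.88, 3.23 and 4.26, also overlapping (log2 fold change 0.11, adjusted p = 0.54, limma). The secreted decoy Tnfrsf11b (osteoprotegerin), which binds TRAIL and RANKL, was at 16.7, 21.2 and 22.8 FPKM against 17.3, 15.9 and 17.2. BPVB 1 lay among the sham values and the other two BPVB libraries above them. Its log2 fold change of 0.25 (SE 0.10) did not pass (adjusted p = 0.10, limma), but did without BPVB 1, at 0.38 (adjusted p = 0.0041, limma), and with voom on the fragments, at 0.26.

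A pair of neighbouring receptor genes differed in opposite directions. Tnfrsf22, known in mice as a decoy receptor of TRAIL, was expressed at 1.64, 1.68 and 1.73 FPKM in the BPVB libraries and at 0.324, 0.459 and 0.969 in the sham libraries, from 57, 57 and 67 fragments against 10, 14 and 30. The BPVB values were close to each other and the sham values were spread, with sham 3 the nearest to the BPVB group. The mean was 2.89-fold higher in the BPVB group, and the log2 fold change was 1.06 (SE 0.20, adjusted p = 0.0043, limma). Tnfrsf26, a receptor of the same gene cluster, was at 8.65, 7.48 and 7.93 FPKM in the BPVB and 12.2, 9.48 and 11.5 in the sham libraries. All 3 BPVB values lay below the sham values, 1.38-fold lower in the mean, with a log2 fold change of -0.44 (SE 0.10, adjusted p = 0.010, limma). The genes are related in sequence, and how reads shared by both were counted is not given in the sources used here, so that the split between them is uncertain.

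Their promoters are shown side by side because the genes are neighbours on chromosome 1 and differed in direction. That of Tnfrsf22 lies at chr1:208285824-208286073 and that of Tnfrsf26 at chr1:208252431-208252680, both on the minus strand of GRCr8. Tnfrsf22 has 2 start sites there, and the one farthest upstream was used. Capitals mark a TATA box (TATAAA on either strand, found in 8 of 30 member promoters and 13.1% of all promoters) 12 to 7 bases before the Tnfrsf22 start. None of the 6 motifs searched was found in the Tnfrsf26 window.
Tnfrsf22: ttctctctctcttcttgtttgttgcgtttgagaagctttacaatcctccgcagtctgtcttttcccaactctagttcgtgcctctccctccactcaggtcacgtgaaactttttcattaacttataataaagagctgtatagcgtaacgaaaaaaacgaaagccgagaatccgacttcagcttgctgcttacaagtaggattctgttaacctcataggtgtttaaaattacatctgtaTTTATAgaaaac
Tnfrsf26: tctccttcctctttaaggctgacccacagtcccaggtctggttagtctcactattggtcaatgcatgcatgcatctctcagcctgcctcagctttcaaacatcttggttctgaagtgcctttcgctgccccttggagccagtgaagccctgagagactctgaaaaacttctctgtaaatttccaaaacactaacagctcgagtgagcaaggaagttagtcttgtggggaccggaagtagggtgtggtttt

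Tnf itself was low. Its levels were 0.533, 0.455 and 0.638 FPKM in the BPVB and 0.598, 0.733 and 0.672 in the sham libraries, from 20 to 32 fragments, and the groups overlapped (log2 fold change -0.17, SE 0.14, adjusted p = 0.39, limma). Both of its receptors rose by small amounts. Tnfrsf1a, the widely expressed receptor with a death domain, was the most abundant receptor in each library, at 55.5, 52.4 and 52.7 FPKM in the BPVB and 48.3, 49.9 and 48.3 in the sham libraries. The groups did not overlap, and the log2 fold change was 0.13 (SE 0.04, adjusted p = 0.029, limma). Tnfrsf1b, which lacks a death domain, was at 6.26, 5.96 and 6.42 FPKM against 5.45, 5.16 and 4.64, with no overlap and a log2 fold change of 0.27 (SE 0.09, adjusted p = 0.043, limma). The Tnfrsf1b to Tnfrsf1a ratio was 0.113, 0.114 and 0.122 in the BPVB and 0.113, 0.104 and 0.0960 in the sham libraries (p = 0.1 in a two-sided exact permutation test, which cannot go lower with 3 rats against 3).

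The calls of both TNF receptors rested on small margins. That of Tnfrsf1a was lost without BPVB 1 (0.10), BPVB 3 (0.14), sham 1 (0.12) or sham 3 (0.12) and with the median of ratios (0.11), and that of Tnfrsf1b without BPVB 1 (0.26), BPVB 2 (0.30), BPVB 3 (0.25), sham 2 (0.28) or sham 3 (0.21), with the median of ratios (0.24) or quantile normalization (0.23), and without the filter on low values, the numbers in brackets being log2 fold changes.

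Fas, the death receptor of Fas ligand, was expressed at 6.86, 6.08 and 6.23 FPKM in the BPVB libraries and at 4.94, 3.83 and 4.95 in the sham libraries. All BPVB values were higher than all sham values, 1.40-fold in the mean, with a log2 fold change of 0.45 (SE 0.11, adjusted p = 0.014, limma). Its ligand Faslg, made by T and NK cells, was too low to be tested. It was counted with 5, 11 and 4 fragments in the BPVB libraries and with 0 in each sham library, which is at least 5.74-fold higher in FPKM if the sham group is given a limit of 3 fragments over its 3 libraries. Voom on the fragments called Faslg higher, and limma without the filter on low values, which also tested it, did not call it. The NK cell markers did not move together. Ncr1, too low to be tested, was at 0 in the sham group, and Prf1 was called higher (log2 fold change 0.67). Klrd1 (0.31), Nkg7 (-0.09) and Gzmb (-0.36) were not called. Nkg7 ranged from 0.160 to 1.545 FPKM in the BPVB group, with BPVB 3 the highest. NK cell markers summed to 1.97 to 3.20 FPKM in the BPVB and 1.602 to 1.86 in the sham libraries, with the highest sum in BPVB 3. T cell markers summed to 12.3 to 13.4 and 9.70 to 10.7, and the only one called was Cd4, which rat macrophages also express, at 7.99 to 8.77 against 4.30 to 5.26 FPKM. The chains of the T cell receptor complex Cd3d (log2 fold change -0.44), Cd3e (-0.08) and Cd3g (-0.40) were not called. The part of these cells in the Faslg counts was not tested.

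Fas is a known target of NF-kappaB, and its promoter is printed because it held matches to the letters of 2 inducible factors. It lies at chr1:241211905-241212154 on the plus strand of GRCr8. Capitals mark a kappaB match 242 to 233 bases before the start, an AP-1 match (TGANTCA) 205 to 199 bases before it and a GC box 47 to 42 bases before it. A kappaB match on either strand was found in 5 of the 30 member promoters (Fas, Lta, Ltb, Tnfrsf8 and Tnfsf14) and in 6.4% of all promoters, and an AP-1 match in 3 (Fas, Tnfrsf1b and Tnfrsf8) and in 6.33%. Of these genes Fas and Tnfrsf1b were called higher, Ltb, Tnfrsf8 and Tnfsf14 were not called, and Lta was not tested. Tnfrsf8 held both kinds of match, as Fas did. A CArG box, the letters bound by serum response factor, was present in 1 member promoter (Tnfrsf17) and in 1.51% of all.
Fas: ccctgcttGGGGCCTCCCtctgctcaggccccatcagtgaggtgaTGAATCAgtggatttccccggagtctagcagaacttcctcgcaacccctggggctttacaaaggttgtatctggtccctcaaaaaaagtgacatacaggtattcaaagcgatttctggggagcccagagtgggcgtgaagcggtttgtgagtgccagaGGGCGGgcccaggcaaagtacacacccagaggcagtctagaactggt

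Ngfr, the low-affinity neurotrophin receptor, was at 2.15, 2.24 and 2.50 FPKM in the BPVB and 1.80, 1.11 and 1.68 in the sham libraries, without overlap, with a log2 fold change of 0.48 (SE 0.15, adjusted p = 0.044, limma). Schwann cells are known to express it. In the same libraries the Schwann cell markers Sox10 (log2 fold change -0.70) and Mbp (-0.73) were called lower and S100b (0.78) was called higher, and their part in the Ngfr difference was not tested. Tnfrsf21 (death receptor 6), which is expressed in neurons and other cells, was at 5.35, 3.71 and 4.02 FPKM against 5.49, 6.60 and 5.82. Its log2 fold change was -0.42 (SE 0.13, adjusted p = 0.039, limma), and BPVB 1 lay just under the lowest sham value. The call of Ngfr was lost without BPVB 1 (log2 fold change 0.52), BPVB 2 (0.49), BPVB 3 (0.42), sham 2 (0.32) or sham 3 (0.54), and that of Tnfrsf21 without BPVB 2 (-0.33), BPVB 3 (-0.38), sham 1 (-0.48), sham 2 (-0.36) or sham 3 (-0.44). Both calls were also lost without the filter on low values, Ngfr's with the median of ratios (0.45) or quantile normalization (0.39), and Tnfrsf21's with TPM (-0.42).

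Ltbr, the lymphotoxin beta receptor, was the second receptor by level, at 41.7, 40.5 and 46.0 FPKM in the BPVB and 38.96, 37.7 and 39.9 in the sham libraries. The groups did not overlap, but the log2 fold change of 0.13 (SE 0.05) did not pass (adjusted p = 0.087, limma). It passed with TPM, at 0.17, and with voom on the fragments, at 0.14. The ligand Ltb was at 2.28, 2.20 and 3.08 FPKM against 1.80, 3.54 and 2.59 (log2 fold change -0.03, adjusted p = 0.93, limma). Lta, with which it forms the membrane heterotrimer, was counted with 0 fragments in each BPVB library and with 14, 0 and 1 in the sham libraries, so that nearly all of its counts came from sham 1. Tnfsf14 (LIGHT), another ligand of Ltbr, was at 0.0338 to 0.154 FPKM in the BPVB and 0 to 0.422 in the sham libraries, from at most 10 fragments (log2 fold change -0.14, adjusted p = 0.68, limma). The genes of Lta, Tnf and Ltb follow each other on chromosome 20 of GRCr8, and no library held more than 3.54 FPKM of any of them.

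The ligand of the RANK system was nearly absent from the counts. Tnfsf11 (RANKL) was counted with 1, 0 and 8 fragments after banding and with 0 in each sham library, and no ratio of the decoy Tnfrsf11b to it could be formed. Its receptor Tnfrsf11a (RANK) was at 1.83 to 2.72 FPKM in the BPVB and 1.31 to 1.84 in the sham libraries, overlapping by a narrow margin, with a log2 fold change of 0.44 that did not pass (adjusted p = 0.071, limma). It was called without BPVB 3.

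Costimulatory members of the family, through which antigen-presenting cells and lymphocytes signal to each other, were low and mostly overlapped. Cd40 was at 1.62 to 2.10 FPKM in the BPVB and 1.199 to 2.29 in the sham libraries (log2 fold change 0.01). Its ligand Cd40lg had 0, 6 and 0 fragments in the BPVB and 1, 0 and 1 in the sham libraries. Cd27, Tnfrsf4, Tnfrsf9, Tnfrsf13b and Tnfrsf14 each had a group mean under 0.5 FPKM in both groups, with log2 fold changes between 0.02 and 0.17. Tnfsf18, the ligand of Tnfrsf18, was at 0.699, 0.575 and 1.02 FPKM in the BPVB and 0.384, 0.421 and 0.399 in the sham libraries. It did not overlap and missed the threshold narrowly (log2 fold change 0.47, SE 0.16, adjusted p = 0.0509, limma), and it was called with TPM, without the filter and without BPVB 2. Its receptor had 4, 8 and 7 fragments against 4, 0 and 0 and was not tested. Tnfsf9 varied widely within the BPVB group, at 0.286, 0.849 and 1.44 FPKM, against 0.385, 0.586 and 0.385 in the sham group (log2 fold change 0.42, adjusted p = 0.31, limma), and was called without BPVB 1. Tnfrsf8 was at 0.119 to 0.221 FPKM against 0.0378 to 0.0744, from 3 to 20 fragments, with no overlap and an adjusted p of 0.25 (limma). Cd70 was counted only in sham 3, with 3 fragments, and Tnfsf8 with at most 1 fragment in any library.

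Tnfsf15, a ligand made by endothelial cells that acts on Tnfrsf25, had the lowest log2 fold change of the tested members, -0.72 (SE 0.30). Its values of 0.987, 0.354 and 0.222 FPKM in the BPVB and 0.998, 1.74 and 0.719 in the sham libraries rested on 5 to 31 fragments and overlapped, since BPVB 1 lay at the level of sham 1, and the difference did not pass (adjusted p = 0.10, limma). It was called without BPVB 1. Endothelial markers summed to 896 to 910 FPKM in the BPVB and 990 to 999 in the sham libraries. Tnfrsf25 was at 1.09 to 1.52 FPKM against 0.897 to 1.34 (log2 fold change 0.15, adjusted p = 0.50, limma), and Tnfrsf19, an orphan receptor of the family, at 1.67 to 2.36 against 1.26 to 2.58 (log2 fold change 0.10, adjusted p = 0.77, limma).

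Behind the receptors stands a shared apparatus of adaptors, ubiquitin enzymes, kinases and NF-kappaB subunits. Of 47 such genes, all of them tested, 12 were called higher and 1 lower, or 27.7% beside 31.5% of all genes tested, with a median log2 fold change of 0.16 beside 0.03. With voom on the fragments 21 of the 47 were called, beside 34% of all genes in that fit, so that the list lay below the background in one fit and above it in the other. The 5 largest called differences were those of Nfkbie (0.68), an inhibitor that holds NF-kappaB in the cytoplasm, Relb (0.66), an NF-kappaB subunit of the noncanonical branch, Ikbkb (0.65), the catalytic kinase of the canonical branch, Birc3 (0.50), a ubiquitin ligase of TNF receptor complexes, and Tnip1 (0.46), a partner of the deubiquitinating enzyme A20. Nfkbie was at 8.24, 8.27 and 8.41 FPKM in the BPVB and 4.61, 5.82 and 4.66 in the sham libraries (adjusted p = 7.7e-04, limma). Ikbkb was at 18.9, 18.9 and 18.4 against 12.8, 11.2 and 11.4 FPKM (adjusted p = 7.4e-05, limma). Relb was at 4.56, 6.02 and 5.37 against 2.82, 2.86 and 3.86 FPKM (adjusted p = 0.0064, limma). The groups of each of these genes lay apart. Birc3, at 1.302 to 1.61 against 0.830 to 0.959 FPKM (adjusted p = 0.015, limma), lost its call without BPVB 1 (log2 fold change 0.44).

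Other genes of this apparatus are named here after their values were seen. The inhibitor Nfkbia was the most abundant gene of the list, at 119 to 124 FPKM in the BPVB and 84.5 to 91.0 in the sham libraries (log2 fold change 0.45, adjusted p = 2.8e-05, limma). Nfkb1 (0.25) and Nfkb2 (0.39), which encode the precursors of NF-kappaB subunits, were called higher, and Rela was not called (-0.13, adjusted p = 0.075, limma). The sheddases of TNF and its receptors moved apart, Adam17 higher (0.36, adjusted p = 3.1e-04, limma) and Adam10 lower (-0.16, adjusted p = 0.012, limma). The adaptors Tradd (log2 fold change 0.13) and Fadd (0.28), the kinase Ripk1 (0.01) and the protease Casp8 (-0.03) were not called. Nor were Traf1 to Traf6, with log2 fold changes of -0.05 to 0.29, the largest being that of Traf2 (adjusted p = 0.062, limma).

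Genes known to be induced by TNF or lymphotoxin in vessels and lymphoid tissue formed the other list. Of its 40 genes, 39 were tested (Csf3 was not analysed here), and 17 were called higher and 4 lower, or 53.8% beside 31.5% of all genes tested, with a median log2 fold change of 0.31 beside 0.03. The groups did not overlap in 27 of the 39, beside 45.6% of all genes tested. Like the signalling list, this list was chosen with earlier results of these data known, so that its shares describe it and do not test it. The 5 largest called differences were those of Ccl21 (2.11), a chemokine that guides dendritic cells and T cells, Ptx3 (1.56), a soluble pattern recognition protein, Ccl7 (1.45), a monocyte chemokine, Bcl2a1 (1.27), an inhibitor of apoptosis, and Madcam1 (1.22), an adhesion molecule of mucosal venules. Ccl21 was at 134, 137 and 144 FPKM in the BPVB and 30.8, 30.3 and 34.5 in the sham libraries (adjusted p = 2.8e-08, limma). Ptx3 was at 3.19, 1.46 and 2.31 against 0.437, 0.355 and 0.480 FPKM (adjusted p = 6.5e-04, limma). Ccl7 was at 10.8, 9.12 and 9.42 against 4.64, 2.33 and 3.12 FPKM (adjusted p = 4.7e-04, limma). In each of these genes the lowest BPVB value was above the highest sham value. Bcl2a1 was at 5.15 to 8.997 FPKM against 2.05 to 3.36 (adjusted p = 0.0016, limma) and Madcam1 at 1.63 to 1.68 against 0.295 to 0.691 (adjusted p = 6.8e-04, limma).

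The list did not move as a block. Among genes named after their values were seen, Vcam1 (0.61), Selp (0.79) and Icam1 (0.17) were called higher and Sele was not called (0.13, adjusted p = 0.54, limma), all 4 being adhesion molecules that TNF induces on endothelium. Cxcl9 was called lower, at 4.397, 2.77 and 2.98 FPKM in the BPVB and 8.05, 7.78 and 8.49 in the sham libraries (log2 fold change -1.17, adjusted p = 3.5e-04, limma), as were Ptgs2 (-0.67), Nos2 (-0.37) and Irf1 (-0.20). Tnfaip3, which encodes A20, was at 6.06 against 4.95 FPKM in the mean (log2 fold change 0.27, adjusted p = 0.064, limma). Macrophages, of whose 8 markers 7 rose, are known to express many genes of both lists, and their part in these counts was not tested.

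**Figure D5:**
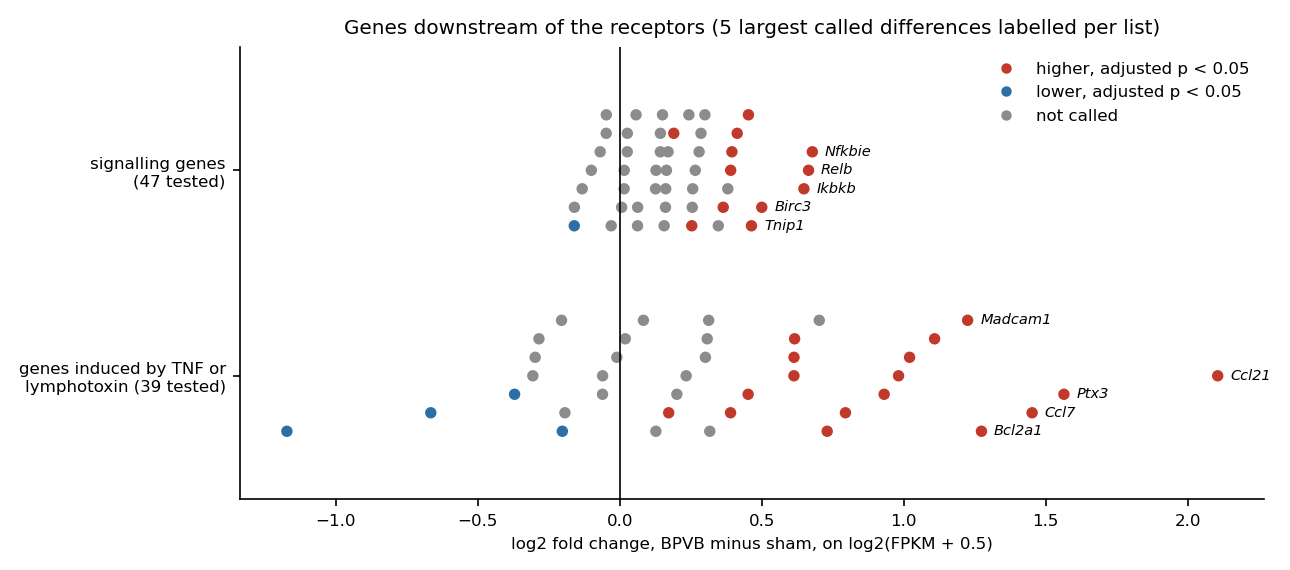
Log2 fold change (BPVB minus sham, on log2(FPKM + 0.5)) of 47 signalling genes (upper band) and 39 genes induced by TNF or lymphotoxin (lower band), with 1 point per gene, spread vertically only to separate points; red and blue mark an adjusted p under 0.05, and the 5 largest called differences of each list carry names. The signalling genes span a narrow range up to 0.68 (Nfkbie), while the induced genes reach from -1.17 (Cxcl9) to 2.11 (Ccl21).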

How the data were processed

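Bulk RNA-seq libraries of the PVs of 3 BPVB and 3 sham rats were grouped by the sample labels, which name no batch. Per the paper's methods, the authors used fastp for trimming, HISAT for mapping, HTSeq-count for counting and DESeq2 for their comparison, whereas the submitters' processing notes list HISAT2 2.0.5, StringTie 1.3.3b, featureCounts 1.5.0-p3 and DESeq2 1.20.0. Library kits also differ between the labels (NEBNext Ultra) and the paper (VAHTS Universal V6). The genome build, annotation and strand setting are not given in the sources used here, so that reads of overlapping genes cannot be told apart. The authors deposited 1 FPKM value per gene and rat. No column of per-sample values was left unused (0 columns).

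Whole fragments behind the FPKM were recovered for 100.0% of the 17833 genes (within 0.01 of a whole number), and limits from a count of 0 (3 fragments per group) cover counting error only. The main test was limma 3.58.1 in R 4.3.3 (lmFit, eBayes with a trend, two-sided) on log2(FPKM + 0.5) over the 15150 genes with a mean of at least 0.1 FPKM, with Benjamini-Hochberg adjustment, a method checked on simulated data. Single ratios were compared by exact permutation. Motifs were searched on both strands of the 250 bases before the start of each gene in RefSeq's GRCr8 promoters, taking the start farthest upstream where a gene had several. All 40 members matched by gene ID, and 30 had a promoter. Other steps ran in Python 3.11.15 (matplotlib 3.10.9, pandas 2.3.3, scipy 1.17.1 and numpy 2.4.6).

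Members were described by library where the adjusted p was under 0.05 with an absolute log2 fold change of at least 0.5, where the mean was at least 10 FPKM, where they were the partner of such a member with a mean of at least 0.1 FPKM, and for Tnf, Tnfrsf1a and Tnfrsf1b. Ngfr, Fas, Tnfrsf21, Tnfrsf26, Tnfsf15, Tnfsf18 and Tnfsf9 fell outside this rule and were named after their values were seen. Of the signalling and target lists, the 5 called genes with the largest change were named. The members, the signalling and target lists and the marker lists were chosen with earlier results of these data known. Of the Schwann cell markers, only those named are reported here. Alternatives were pseudocounts of 1 and 0.1, a filter at 1 FPKM or none, a block for the replicate number, scaling by the median of ratios, TPM or quantile normalization, robust eBayes, voom on the fragments and leaving out each library in turn.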

Additional observations from a re-analysis of the deposited data

How the results depend on the processing

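Over 16 alternatives, Tnfrsf12a kept a log2 fold change of 1.78 to 2.001, Tnfrsf22 of 0.78 to 1.65, Fas of 0.34 to 0.50 and Tnfrsf26 of -0.54 to -0.36, each with its call, and Tnfsf13b of 0.92 to 2.53 in the 15 that could test it. Ngfr was called in 8 of 16, Tnfrsf21 in 8, Tnfrsf1b in 7 and Tnfrsf1a in 10, all with an unchanged sign. Counts of called members moved as follows, and the cause was not tested. Members called higher (7) fell to 4 with the median of ratios, and members called lower (2) to 1 with TPM. Ligands called (1) were 0 at a mean of at least 1 FPKM, where Tnfsf13b was not tested, 3 without a filter, and 2 with the median of ratios, TPM or voom. Receptors called (8) were 5 without a filter and 5 with the median of ratios, members also past an absolute log2 fold change of 1 (3) were 1 with a pseudocount of 1, which shrinks the change of low genes, and signalling genes called (13 of 47) were 21 with voom, which called 34% of all genes. Leaving out each library gave 4 to 6 members higher, 1 to 3 lower, 1 to 3 ligands, 4 to 6 receptors, 2 to 4 members past a log2 fold change of 1, 11 to 16 signalling genes, 17 to 20 target genes and a log2 difference of 0.10 to 0.22 in the Tnfrsf1b to Tnfrsf1a ratio (0.16 with all libraries). The sign changed for Ltb (-0.24 to 0.17 over the libraries left out, above 0 at 0.0221 without BPVB 1, 0.0427 without BPVB 2 and 0.17 without sham 2) and for Tnfsf10 (-0.0245 to 0.11, below 0 at -0.0122 without BPVB 3 and -0.0245 without sham 1), neither of them called in any fit.

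The labels number the replicates 1 to 3 in both groups. Deviations of same-numbered libraries from their group means correlated at 0.03, 0.02 and 0.02 over 12157 genes, so the numbers were not taken to pair the rats, although each library correlated best with its own number. With the replicate block, 4539 genes were called (4775 without it), with 6 members higher and 1 lower. The calls of Tnfrsf1a (adjusted p = 0.052, limma), Tnfrsf1b (0.073) and Tnfrsf21 (0.063) were not made with it, and Tnfrsf11a was called. The ratio of Tnfrsf11b to Tnfsf11 could not be computed, since Tnfsf11 was at 0 in 4 libraries. The 8 members below 0.1 FPKM rested on few fragments, and of these voom called Faslg, which was not called without the filter. The Tnfrsf12a to Tnfsf12 ratio, added after the data were seen, differed by 1.93 to 2.15 (log2) over the libraries left out.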
